A study of Mus musculus with 6 samples.

Results

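Broad Lsd1 domains were chosen by length alone, as the called peaks of 3000 bp or more in 3 Lsd1 ChIP-seq libraries of C2C12 cells, a mouse myoblast line that can be driven toward muscle or toward fat. The rule took 2356 of 95852 peaks, and joining those that overlapped by at least 1 bp between libraries gave 1563 domains. Wild-type cells in myogenic medium (2% horse serum) gave 894 broad peaks of 43426, wild-type cells in adipogenic medium gave 538 of 18893, and LSD1(OE) cells in adipogenic medium gave 924 of 33533. All cells were on day 1 of differentiation at passages 3-5, and each condition had 1 ChIP library and 1 input library, so no value has a replicate and no test between conditions was possible. The adipogenic medium held isobutylmethylxanthine, indomethacin, dexamethasone, insulin, T3 and rosiglitazone. LSD1(OE) cells were a stable line with a lentiviral, doxycycline-inducible Flag-tagged LSD1, selected with G418 and given doxycycline before and during differentiation, so effects of LSD1, the selection and doxycycline cannot be told apart. The files hold peaks and no expression, so neither the level of Lsd1 nor markers of muscle or fat were checked.

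Lsd1 (Kdm1a) removes methyl groups from histone H3, at lysine 4 as part of CoREST-type repressor complexes and, with other partners, at lysine 9. It has no DNA-binding specificity of its own for most targets and is brought to promoters and enhancers by transcription factors such as the Snail family. In muscle precursors it takes part in the choice between the muscle and the brown fat program. A long peak in ChIP-seq is a stretch over which neighbouring windows all passed the threshold of the peak caller, so its length depends on the spread of the signal, on its strength and on sequencing depth.

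The domains differed in what lay at their highest point, the summit, and 8 windows are shown on the plus strand of the RefSeq mouse assembly of the mm10 build, with windows in histone genes held to the coding part. In these, capitals mark GGGCGG (the GC box), CAGCTG (an E-box bound by MyoD-type factors) and TGANTCA (the AP-1 site), searched on both strands so that CCGCCC is a GC box read from the other strand. The first 3 windows, H2ac8 (chr13:23570721-23571020), H2ac22 (chr13:21786826-21787108) and H2ac13 (chr13:21716516-21716814), lie in coding exons of histone H2A genes under domains that were broad in all 3 libraries, and they are shown because they are nearly the same sequence.
H2ac8: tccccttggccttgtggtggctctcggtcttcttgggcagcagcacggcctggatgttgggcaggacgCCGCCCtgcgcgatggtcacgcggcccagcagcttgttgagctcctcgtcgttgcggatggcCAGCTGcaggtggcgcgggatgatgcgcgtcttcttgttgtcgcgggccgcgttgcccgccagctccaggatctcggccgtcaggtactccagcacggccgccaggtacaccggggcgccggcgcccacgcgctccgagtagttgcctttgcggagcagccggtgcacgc
H2ac22: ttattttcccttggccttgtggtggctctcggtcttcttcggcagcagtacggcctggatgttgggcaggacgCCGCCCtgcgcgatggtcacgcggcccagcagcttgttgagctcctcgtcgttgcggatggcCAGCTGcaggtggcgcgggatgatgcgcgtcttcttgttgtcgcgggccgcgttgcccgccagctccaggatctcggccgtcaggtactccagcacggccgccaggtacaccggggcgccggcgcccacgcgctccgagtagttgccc
H2ac13: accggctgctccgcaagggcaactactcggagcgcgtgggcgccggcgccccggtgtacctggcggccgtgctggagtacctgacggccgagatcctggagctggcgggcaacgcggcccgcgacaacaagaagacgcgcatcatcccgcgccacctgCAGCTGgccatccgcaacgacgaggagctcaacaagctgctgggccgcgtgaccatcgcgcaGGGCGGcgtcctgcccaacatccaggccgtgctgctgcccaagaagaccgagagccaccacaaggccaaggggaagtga
The H2ac8 and H2ac22 windows were identical at 274 of 278 aligned bases, and the H2ac8 window matched the reverse complement of the H2ac13 window at 293 of 294.

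The next 2 windows, Klf10 (chr15:38301260-38301559, 699 bp upstream of the start site) and Timp2 (chr11:118365107-118365406, between genes, at -9846 bp from the start site of Timp2), were also broad in all 3 libraries. They contrast a GC-box promoter with a site far from a promoter that held an E-box beside an AP-1 site.
Klf10: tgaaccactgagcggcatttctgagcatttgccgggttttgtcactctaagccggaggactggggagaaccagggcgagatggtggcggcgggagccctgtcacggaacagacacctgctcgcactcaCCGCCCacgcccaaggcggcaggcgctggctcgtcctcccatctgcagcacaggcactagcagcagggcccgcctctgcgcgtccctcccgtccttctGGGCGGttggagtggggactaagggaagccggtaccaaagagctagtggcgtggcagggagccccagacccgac
Timp2: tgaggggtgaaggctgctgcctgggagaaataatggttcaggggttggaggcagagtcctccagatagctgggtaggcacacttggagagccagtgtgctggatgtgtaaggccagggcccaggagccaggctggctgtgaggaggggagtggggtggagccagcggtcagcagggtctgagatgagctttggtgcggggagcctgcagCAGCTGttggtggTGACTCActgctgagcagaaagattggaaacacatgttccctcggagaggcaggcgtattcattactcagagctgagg

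The last 3 windows were summits of domains that were broad in a single library: Mef2d (chr3:88145496-88145795, in an intron 3274 bp into the gene) in wild-type myogenic cells, and Angptl4 (chr17:33783458-33783757, 2033 bp upstream) and Col5a1 (chr2:27885575-27885874, 700 bp upstream) in LSD1(OE) cells. Each held an AP-1 site, and the latter pair also held an E-box. The windows were picked as examples, so they do not show how frequent a motif was. AP-1 sites lay at 16.3% of all broad summits in wild-type myogenic and 20.3% in LSD1(OE) cells, against 18.9% and 18.1% over all peaks.
Mef2d: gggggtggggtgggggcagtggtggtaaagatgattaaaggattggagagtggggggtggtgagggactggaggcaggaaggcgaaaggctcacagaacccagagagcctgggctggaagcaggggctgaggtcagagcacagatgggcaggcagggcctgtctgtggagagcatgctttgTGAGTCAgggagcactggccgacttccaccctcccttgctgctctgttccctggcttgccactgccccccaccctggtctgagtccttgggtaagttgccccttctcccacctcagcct
Angptl4: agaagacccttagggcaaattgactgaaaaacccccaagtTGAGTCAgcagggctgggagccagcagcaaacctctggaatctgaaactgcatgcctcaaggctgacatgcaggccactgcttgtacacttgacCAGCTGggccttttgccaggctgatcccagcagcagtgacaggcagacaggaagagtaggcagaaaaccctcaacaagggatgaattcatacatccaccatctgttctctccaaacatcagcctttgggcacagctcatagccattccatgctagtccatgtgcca
Col5a1: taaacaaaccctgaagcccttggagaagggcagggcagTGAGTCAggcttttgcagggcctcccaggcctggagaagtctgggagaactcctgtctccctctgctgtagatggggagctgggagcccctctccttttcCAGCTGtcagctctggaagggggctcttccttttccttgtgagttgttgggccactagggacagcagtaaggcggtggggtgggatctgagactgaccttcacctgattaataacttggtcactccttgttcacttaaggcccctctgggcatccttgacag

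The length of the peaks chose the domains, so length, tags and score describe them and carry no test. Broad peaks were 2.06% of all peaks in wild-type myogenic cells, 2.85% in wild-type adipogenic cells and 2.76% in LSD1(OE) cells, and they took 10.3%, 11% and 13.6% of the ChIP tags in peaks. A tag is a mapped read left after the peak caller had limited duplicates, and the ChIP libraries held 46155625, 63915769 and 55193310 of them. The median broad peak was 3598 bp in wild-type myogenic, 3601 bp in wild-type adipogenic and 3684 bp in LSD1(OE) cells, and 67.8%, 68.0% and 63.5% were under 4000 bp. The longest reached 26156, 9654 and 16710 bp. At the limit itself, peaks of exactly 3000 bp lay upstream of Il2rb in myogenic cells, at Cerk in adipogenic cells and 27254 bp from B230206L02Rik in LSD1(OE) cells, while peaks of 2999 bp near 1700060C20Rik, 2997 bp near Vcpkmt and 2998 bp at Thbd were left out.

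Tag density within broad peaks was higher than in peaks at large, which the rule partly fixes because weak stretches seldom run on for 3000 bp. Density was counted in tags per kb, scaled to a library of 1000000 filtered tags. The median was 1.85, 1.5 and 1.66 scaled tags per kb in the myogenic, adipogenic and LSD1(OE) libraries, against 1.22, 1.14 and 1.13 over all peaks. In domains that were broad in all 3 libraries, density was lower in wild-type adipogenic than in wild-type myogenic cells by a median of 0.35 on the log2 scale, and higher in 7 of 194. Over 10242 merged regions with a peak in all 3 libraries and no broad peak, the same difference had a median of -0.34, so the broad domains moved with the rest. Density in LSD1(OE) cells over wild-type adipogenic cells had a median log2 ratio of 0.20 in the broad domains, with 165 of 194 higher, and 0.12 in the other regions, with 69.9% higher.

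Promoters held the summits of broad peaks more often than those of all peaks, with the widest gap in wild-type myogenic cells. A promoter was taken as 2000 bp either side of a curated RefSeq start site, and the summit was used because it does not grow with the length of the peak. Summits lay in a promoter for 439 of 894 myogenic broad peaks (49.1%, 95% Wilson interval 45.8-52.4), 217 of 538 adipogenic (40.3%, 36.3-44.5) and 330 of 924 in LSD1(OE) cells (35.7%, 32.7-38.9). Over all peaks the shares were 28.8%, 35.5% and 29.0%. The rest of the myogenic broad summits were mostly in introns (22.8%) or between genes (26.5%), and in LSD1(OE) cells these shares were 28.7% and 34.0%. Wilson intervals, here and below, cover counting error only.

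Summits of broad peaks held GC boxes and the E-box CAGCTG more often than summits of all peaks, while AP-1 sites were about as frequent. In windows of 300 bp, GGGCGG was present at 40.6% (37.4-43.9) of broad summits in wild-type myogenic, 33.3% (29.4-37.4) in wild-type adipogenic and 28.0% in LSD1(OE) cells, against 21.3%, 26.1% and 21% over all peaks. CAGCTG was present at 31.5%, 36.8% and 34.8% of broad summits against 25.8%, 29.3% and 25.9%. The general E-box CANNTG was present at 74.6%, 83.1% and 83.9% of broad summits against 79.7%, 80.5% and 80.8% of all peaks. It was thus less frequent at broad summits in wild-type myogenic cells and slightly more frequent in both adipogenic libraries. TGANTCA was present at 16.3%, 20.8% and 20.3% against 18.9%, 20.3% and 18.1%. The palindromic glucocorticoid response element was found in 3, 7 and 11 broad summits, or 0.336%, 1.30% and 1.19%, against 0.525%, 0.651% and 0.722% of all peaks. GC content followed the GC boxes, with a median of 58.3%, 56.3% and 55.7% at broad summits and 51.3%, 53.0% and 52.0% at all peaks.

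**Figure D1:**
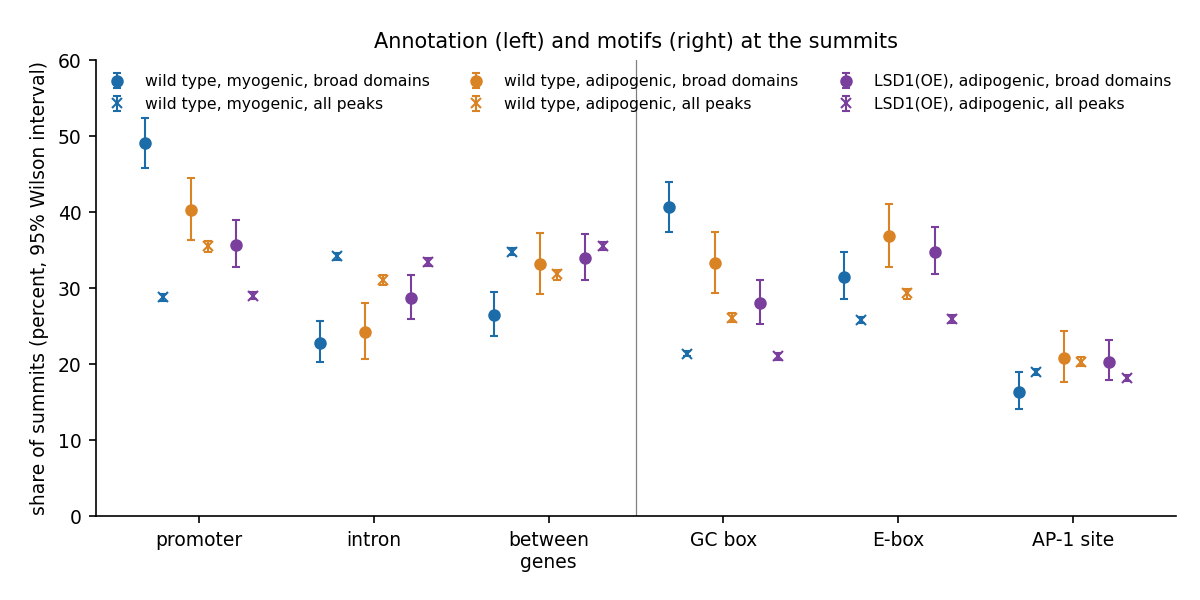
Share of summits (percent) by annotation, on the left, and with a motif within 300 bp, on the right, for broad peaks (dots) and all peaks (crosses) of each library, with 95% Wilson intervals. Broad summits in wild-type myogenic cells had the highest promoter share (49.1%) and GC-box share (40.6%), and the AP-1 shares of broad and all peaks lay within 3 percentage points of each other.

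Broad peaks that held a start site spread further into the gene than upstream of it, as shorter peaks did. A start site lay inside 460 myogenic (51.5%), 225 adipogenic (41.8%) and 354 LSD1(OE) broad peaks (38.3%), where a longer peak has more room for one by length alone. These peaks reached a median of 2094, 2045 and 2240 bp downstream of the start site and 1680, 1767 and 1648 bp upstream. They ran longer on the downstream side in 57.4%, 54.7% and 59.6% of cases, against 57.5%, 52.4% and 56.7% of all peaks with a start site. The position 3000 bp downstream was covered by 15.4%, 17.8% and 22.9% of them, and the position 3000 bp upstream by 12.8%, 13.8% and 15.3%. Their summits stayed near the start site, at a median distance of 237, 357 and 362 bp, against 131 and 152 bp for all peaks of the wild-type libraries. At least 2 genes had their start sites in the same broad peak in 11.5%, 8.18% and 6.82% of broad peaks, and 69, 34 and 54 broad peaks held a whole gene.

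**Figure D2:**
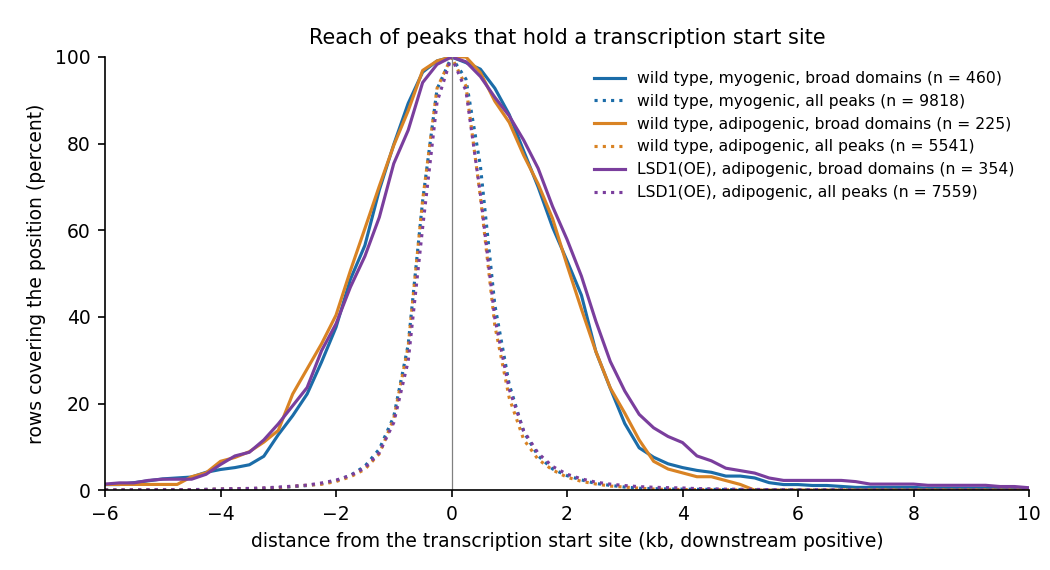
Share of peaks holding a start site (percent) that cover each position from 6 kb upstream to 10 kb downstream, for broad peaks (solid) and all peaks (dotted). Broad peaks covered 2000 bp downstream in 53.0%, 52.0% and 57.9% of cases in wild-type myogenic, wild-type adipogenic and LSD1(OE) cells, and 2000 bp upstream in 37.6%, 40.4% and 38.4%.

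Broad peaks without a start site lay at about the same distance from genes as other distal peaks. The median distance from summit to the nearest start site was 18763 bp in wild-type myogenic, 19852 bp in wild-type adipogenic and 22616 bp in LSD1(OE) cells, against 21158, 20510 and 21820 bp over all peaks without a start site. Beyond 100 kb lay 5.30%, 7.35% and 7.37% of the broad ones and 11.4%, 9.90% and 11.5% of all.

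Most domains were broad in a single library, and most of these had a peak overlapping by at least 1 bp in both others. Of the 1563 domains, 436 were broad in wild-type myogenic cells alone, 145 in wild-type adipogenic cells alone and 439 in LSD1(OE) cells alone. A further 81 were broad in both wild-type libraries, 167 in wild-type myogenic and LSD1(OE) cells, 101 in both adipogenic libraries and 194 in all 3. A start site lay inside 59.3% of the domains broad in all 3 libraries, 59.9% of those broad in wild-type myogenic and LSD1(OE) cells, and 47.9% of those broad in wild-type myogenic cells alone. The share was 31.7% for wild-type adipogenic cells alone, 27.8% for LSD1(OE) cells alone and 26.7% for both adipogenic libraries. Domains broad only in the myogenic library had peaks in both other libraries in 384 of 436 cases, and the counts for the adipogenic and LSD1(OE) libraries were 139 of 145 and 374 of 439.

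A broad peak in 1 library was overlapped by a peak in another far more often than an ordinary peak, as its length and its tags would favour. Of the broad peaks of wild-type myogenic cells, 95.6% were overlapped in wild-type adipogenic cells and 96.2% in LSD1(OE) cells, where 35.4% and 46.5% of all myogenic peaks were. Of the wild-type adipogenic broad peaks, 99.6% were overlapped in wild-type myogenic cells, against 80.5% of all adipogenic peaks, and 98.3% in LSD1(OE) cells, against 74.5%. Of the LSD1(OE) broad peaks, 95.7% were overlapped in wild-type myogenic cells, against 59.8% of all LSD1(OE) peaks, and 94.3% in wild-type adipogenic cells, against 42.0%. Each library entered 4 of these 6 lookups, so they are not independent of each other.

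At an overlap of 1 bp, length was lost more often than presence. Of the 894 wild-type myogenic broad peaks, 289 (32.3%, 29.3-35.5) met a peak of 3000 bp or more in wild-type adipogenic cells, 324 met a single shorter peak, 242 were split into 2 or more shorter peaks and 39 were absent. In LSD1(OE) cells 373 (41.7%, 38.5-45.0) were kept at that length, 254 were shortened, 233 were split and 34 were absent. This order turned around when the 538 longest peaks were taken from each library, with 41.1% kept in wild-type adipogenic and 37.9% in LSD1(OE) cells. Of the 538 wild-type adipogenic broad peaks, 286 (53.2%) were kept in wild-type myogenic and 311 (57.8%) in LSD1(OE) cells, and 2 and 9 were absent. Of the 924 LSD1(OE) broad peaks, 377 (40.8%) were kept in wild-type myogenic and 311 (33.7%) in wild-type adipogenic cells, and 40 and 53 were absent. The absent shares depended on what counts as overlap. They ran from 0.372% to 5.74% over the 6 lookups at 1 bp, from 2.79% to 12.2% where the summit had to be covered, and from 7.81% to 21.4% where 50% of the broad peak had to be overlapped. Peaks picked for their length in one list tend to be shorter in another for that reason alone.

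**Figure D3:**
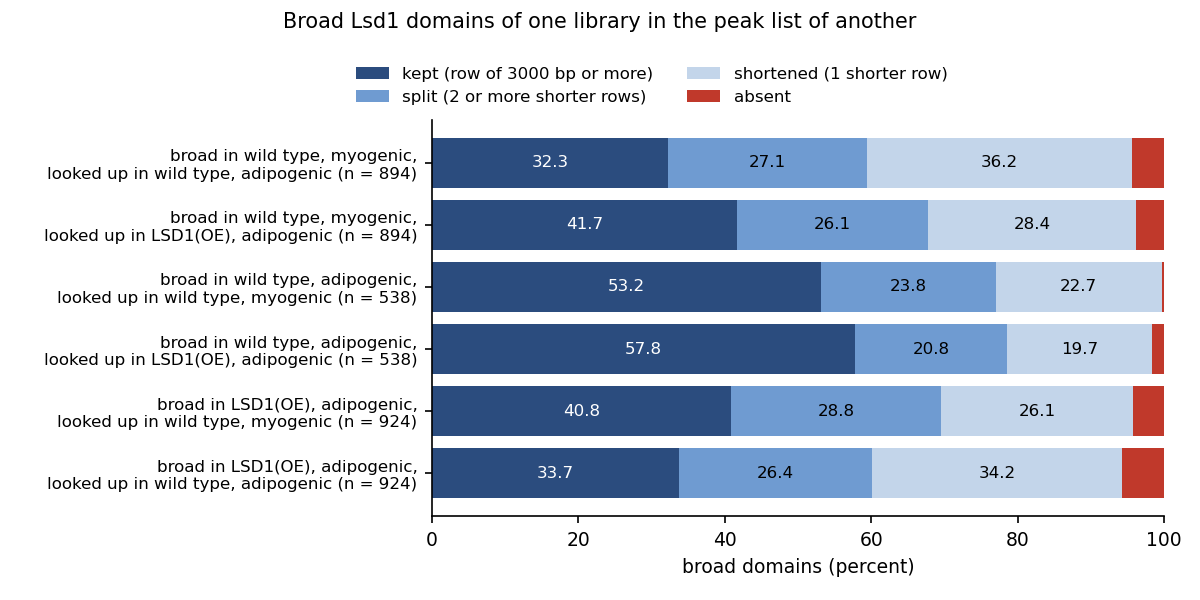
Percent of the broad peaks of each library that met a peak of 3000 bp or more (kept), 2 or more shorter peaks (split), 1 shorter peak (shortened) or no peak (absent) in each other library. Kept shares ran from 32.3% to 57.8%, split shares from 20.8% to 28.8%, and absent shares from 0.372% to 5.74%.

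Split domains were mostly cut by short gaps. The largest gap between the pieces had a median of 310 bp for wild-type myogenic broad peaks looked up in wild-type adipogenic cells and 294 bp in LSD1(OE) cells, and the medians of the other 4 lookups were 248 to 378 bp. The pieces together spanned 3000 bp or more in 75.5% to 80.4% of split peaks. Most splits gave 2 pieces, for example 216 of 242 for wild-type myogenic in wild-type adipogenic cells, and none gave more than 5.

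Broad peaks with a start site inside were kept more often than the others in all 6 lookups, with the widest gaps in the lookups in wild-type myogenic cells. Of the wild-type adipogenic broad peaks, 68.9% (62.6-74.6) of those with a start site and 41.9% (36.5-47.4) of the others were kept in wild-type myogenic cells. Of the LSD1(OE) broad peaks, 57.9% (52.7-62.9) and 30.2% (26.6-34.1) were kept there. Looked up in LSD1(OE) cells, the wild-type adipogenic peaks with and without a start site were kept in 62.2% and 54.6%, and the wild-type myogenic ones in 45.9% and 37.3%. Looked up in wild-type adipogenic cells, the LSD1(OE) peaks with and without a start site were kept in 39.5% and 30.0%, and the wild-type myogenic ones in 33.5% and 31.1%.

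Chromosome 15 held many more broad peaks than its share of peaks. It carried 240 of 894 broad peaks in wild-type myogenic (26.8%), 201 of 538 in wild-type adipogenic (37.4%) and 221 of 924 in LSD1(OE) cells (23.9%), with 8.59%, 10.4% and 8.49% of all peaks and 3.82% of the genome. Of the peaks on chromosome 15, 6.43%, 10.2% and 7.76% were broad. The background ratio, the local input level that gives the deposited score of a peak over the genome average of the input, was also raised there, at a median of 1.20, 1.22 and 1.23 for broad peaks, against 1.00 or 1.000 for broad peaks of the other chromosomes in all 3 libraries. The part of this background in the length of the peaks was not tested. Without chromosome 15, 654, 337 and 703 broad peaks were left, and the kept share of wild-type myogenic broad peaks in wild-type adipogenic cells was 27.5% in place of 45.4% on chromosome 15.

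**Figure D4:**
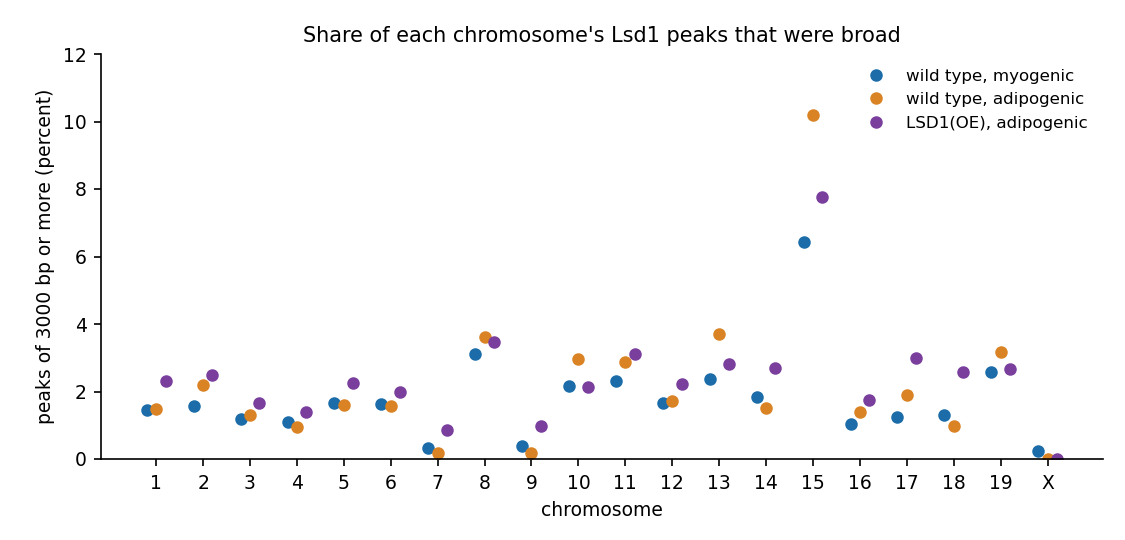
Percent of the Lsd1 peaks on each autosome and chromosome X that were 3000 bp or longer, in each library (dots). Chromosome 15 stood at 6.43%, 10.2% and 7.76%, and no other chromosome drawn passed 3.71% in any library.

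Within chromosome 15, the stretch from 55 to 65 Mb had a larger share of broad peaks than the rest in both adipogenic libraries. There 76 of 483 LSD1(OE) peaks (15.7%) were broad, with 32 of 521 (6.14%) in wild-type myogenic and 43 of 310 (13.9%) in wild-type adipogenic cells. On the rest of chromosome 15 the shares were 6.13% in LSD1(OE), 6.48% in wild-type myogenic and 9.51% in wild-type adipogenic cells. The background ratio of its broad peaks was 1.88 in LSD1(OE), 1.22 in wild-type myogenic and 1.31 in wild-type adipogenic cells, and its part in these counts was not tested. Around Myc and the noncoding gene Pvt1, 21 domains lay within 500 kb, with 3 wild-type myogenic, 9 wild-type adipogenic and 20 LSD1(OE) broad peaks. Around Has2, which makes the matrix sugar hyaluronan, 1, 5 and 14 broad peaks lay together. At Myc itself, an immediate-early factor of cell growth, the domain was called as peaks of 5718 and 1792 bp in wild-type myogenic cells, of 5583 and 3044 bp in wild-type adipogenic cells and as a single peak of 16675 bp in LSD1(OE) cells. The background ratio of that LSD1(OE) peak was 3.07, and those of the Myc promoter peaks in the wild-type libraries were 1.25 and 1.81.

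A second dense stretch lay on chromosome 2, with a lower background than the stretches on chromosome 15 in LSD1(OE) cells. Between Snai1 and Gm14321, 15 domains lay within 500 kb, with 3 wild-type myogenic, 7 wild-type adipogenic and 13 LSD1(OE) broad peaks, at median background ratios of 1.14, 0.994 and 1.000. Single peaks in it were higher, up to 1.99 at Snai1 in LSD1(OE) cells. Cebpb, an early adipogenic factor that glucocorticoids induce, lies within it. Its promoter domain was a peak of 3358 bp in wild-type myogenic, 4058 bp in wild-type adipogenic and 4109 bp in LSD1(OE) cells, with summits 165, 23 and 72 bp into the gene.

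Genes under the domains were counted by start site. Broad peaks held the start sites of 571 of 26180 curated genes in wild-type myogenic cells (2.18%), 274 in wild-type adipogenic cells (1.05%) and 425 in LSD1(OE) cells (1.62%). These came to 796 genes in all, of which 145 were covered in all 3 libraries. Any peak held the start sites of 10963, 6129 and 8364 genes (41.9%, 23.4% and 31.9%). Counts of listed genes below are to be read beside these shares. The gene groups below are described by these counts and no test was made of them. Where 1 length is given for a library, it is that of its longest peak in the domain.

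Replication-dependent histone genes, which sit in clusters and are copied many times over, were the group most often covered. This list was chosen after its values were seen. Broad peaks held the start sites of 55 of 63 annotated clustered histone genes in wild-type myogenic, 38 in wild-type adipogenic and 51 in LSD1(OE) cells. These were 87.3%, 60.3% and 81.0% of the list, against 2.18%, 1.05% and 1.62% of all genes. Any peak held 62, 59 and 61 (98.4%, 93.7% and 96.8%), so the libraries differed more in the length of the calls than in their presence. The covered genes fell in 26, 17 and 23 broad peaks, of which 21, 14 and 20 held at least 2 histone genes. The summit lay inside a histone gene in 25, 15 and 18 of these peaks. Of 23 histone domains, 12 were broad in all 3 libraries and 7 in wild-type myogenic and LSD1(OE) cells. Their median density was 2.35, 1.75 and 2.01 scaled tags per kb, against 1.85, 1.5 and 1.66 over all broad peaks.

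The longest histone domain ran from H3c6 to H3c4 and was closed into a single call in LSD1(OE) cells. Its peak there was 16710 bp (chr13:23561326-23578035), where wild-type myogenic cells had peaks of 3392, 2696 and 10663 bp and a further short one, and wild-type adipogenic cells had peaks of 3141, 698 and 8883 bp. The summits lay 363, 268 and 349 bp into H2ac8. Near-identical copies bear on these genes, since reads of 50 bases cannot always be placed: in the H2ac8 window shown above, 2 of 251 stretches of 50 bases occurred once in the genome (0.797%), in the H2ac13 window 2 of 250, and in the H2ac22 window 49 of 234. Over the whole peaks that hold H2ac8 the share was higher, at 84.9%, 81.9% and 85.4% in wild-type myogenic, wild-type adipogenic and LSD1(OE) cells. The separate peaks at H3c6 in this domain were at 76.8% in wild-type myogenic and 67.2% in wild-type adipogenic cells. Other histone domains were far less unique, at 3.17%, 3.14% and 2.72% for the peaks with H2bc23, H2ac23 and H4c17, and 26.4%, 3.19% and 44.4% for those with H4c18 and H2ac24. Under 80% of stretches were unique in 6 of 26, 6 of 17 and 4 of 23 histone peaks, and the other peaks held 43, 25 and 42 histone genes. The study's methods limit its browser profiles to reads that map to a single place, and whether this also held for the peak calls is not stated in the sources used here. The presence and extent of the less unique domains, the counts of histone genes and the position of summits within these genes are therefore uncertain.

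Immediate-early genes, which growth signals switch on within minutes, were covered in every library. Broad peaks held 8 of 22 listed start sites (36.4%) in wild-type myogenic cells and 6 (27.3%) in each adipogenic library. Over all genes the shares were 2.18% in wild-type myogenic, 1.05% in wild-type adipogenic and 1.62% in LSD1(OE) cells. Any peak held 19, 14 and 18 (86.4%, 63.6% and 81.8%), against 41.9%, 23.4% and 31.9% of all genes. Myc, Klf10 and Maff, which were covered by broad peaks in every library, lie on chromosome 15, which held an excess of broad peaks. Junb, an AP-1 subunit, had a myogenic peak of 13060 bp (chr8:84973633-84986692), an adipogenic series of 7583, 1539 and 1986 bp, and an LSD1(OE) peak of 5294 bp with 3 small ones. The myogenic Junb peak had a background ratio of 2.30. Fosl2, another AP-1 subunit, was 4763 bp in wild-type myogenic and 4120 bp in LSD1(OE) cells and was split into 1047 and 1779 bp in wild-type adipogenic cells. Fosl1 was broad in wild-type adipogenic cells alone, as a single peak of 4833 bp in place of pieces of 1888 and 2353 bp in wild-type myogenic and 823, 2256 and 2372 bp in LSD1(OE) cells. Jun and Egr1 were broad only in wild-type myogenic cells, and Ier3 only in LSD1(OE) cells.

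Klf10, a TGF-beta-induced zinc finger factor, kept its domain in all 3 libraries. It was 5253 bp in wild-type myogenic (chr15:38298314-38303566), 4679 bp in wild-type adipogenic and 6843 bp in LSD1(OE) cells, and its summits lay 704, 699 and 692 bp upstream of the start site, within 12 bp of each other. Its tag density of 3.52, 2.74 and 2.80 scaled tags per kb lay above the broad medians, and the background ratio of the adipogenic peak was 1.81. Such stable summits were the minority: the 3 summits lay within 150 bp of each other in 42 of the 194 domains broad in all 3 libraries, and the median largest gap was 910 bp.

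**Figure D5:**
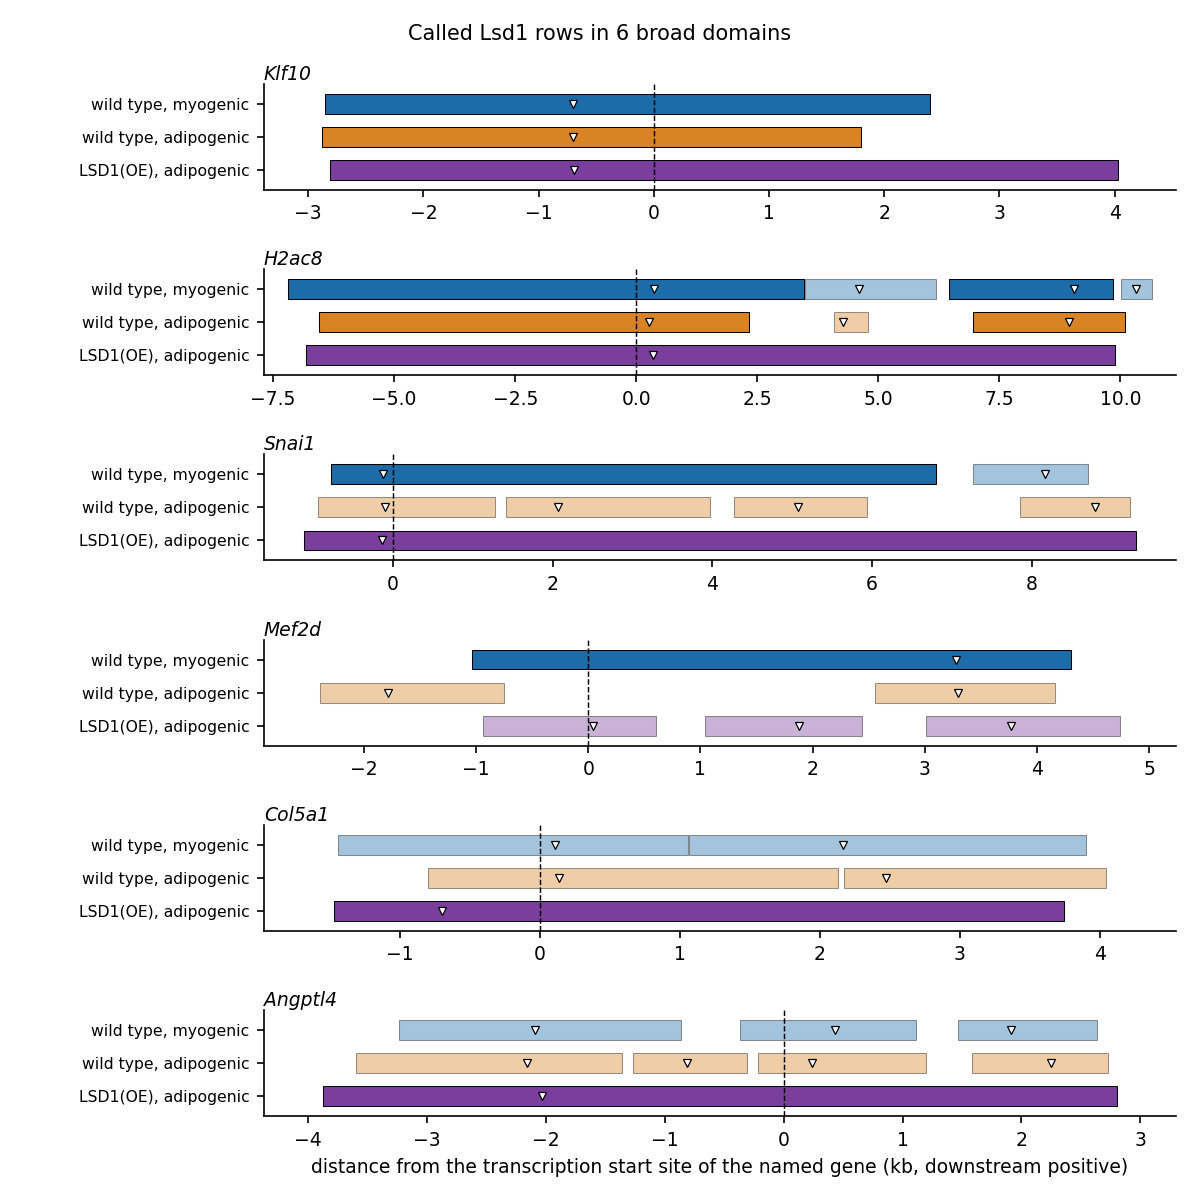
Called Lsd1 peaks of 6 domains, drawn as bars against the distance in kb from the start site of the named gene (dashed line), with summits as triangles. Full colour marks peaks of 3000 bp or more and pale colour shorter ones. Klf10 was broad in all 3 libraries, Mef2d only in wild-type myogenic cells, and Col5a1 and Angptl4 only in LSD1(OE) cells, as a single call over the pieces of the other libraries.

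Notch genes were covered at the ligand, the receptor and the target. Broad peaks held 3 of 17 listed start sites in wild-type myogenic, 2 in wild-type adipogenic and 4 in LSD1(OE) cells. These were 17.6%, 11.8% and 23.5% of the list, against 2.18%, 1.05% and 1.62% of all genes. The ligand gene Jag1 had peaks of 4190, 3897 and 3851 bp (chr2:137114161-137118350 in myogenic cells), with summits 469, 731 and 243 bp upstream. The receptor gene Notch1 had peaks of 4046 bp in wild-type myogenic and 3554 bp in LSD1(OE) cells and was split into 2631 and 1149 bp in wild-type adipogenic cells. Hes1, the repressor that Notch induces, had peaks of 5237, 3621 and 6504 bp. Hes6, which counters Hes1, passed the limit only in LSD1(OE) cells, at 2569, 2780 and 3820 bp. At these 4 genes all 3 libraries had peaks, and length or a gap put them on either side of the limit.

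Genes of the Lsd1 and CoREST complexes, and of a factor that recruits them, also lay under broad domains. Of 22 listed start sites, 4 were covered in wild-type myogenic, 1 in wild-type adipogenic and 2 in LSD1(OE) cells. These were 18.2%, 4.55% and 9.09% of the list, against 2.18%, 1.05% and 1.62% of all genes. Gse1, whose protein copurifies with Lsd1 and CoREST, was broad in all 3 libraries at 5721, 5167 and 5757 bp (chr8:120534526-120540246 in myogenic cells), with summits 16 bp inside, 93 bp upstream and 10 bp upstream of an annotated start site. Hmg20b, a subunit of the complex, was 3105, 1198 and 2095 bp. Zmym2, another subunit, was 3492 bp in wild-type myogenic cells and was split in both adipogenic libraries, and 78.2% of its 50-base stretches occurred once in the genome. Snai1, the zinc finger repressor that recruits Lsd1, had a peak of 7577 bp in wild-type myogenic (chr2:167537417-167544993), of 10424 bp in LSD1(OE) cells and 4 pieces of 1377 to 2566 bp in wild-type adipogenic cells. The background ratios of the long Snai1 peaks were 1.52 and 1.99, those of the adipogenic pieces 1.00, and the Snai1 summits near the start site lay 119, 102 and 140 bp upstream.

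Glucocorticoid-induced genes, of interest because the adipogenic medium holds dexamethasone, were covered most often in LSD1(OE) cells. Broad peaks held 3 of 18 listed start sites in wild-type myogenic, 4 in wild-type adipogenic and 7 in LSD1(OE) cells. These were 16.7%, 22.2% and 38.9% of the list, against 2.18%, 1.05% and 1.62% of all genes. Any peak held 15, 14 and 15. Angptl4, a secreted inhibitor of lipoprotein lipase, was a single LSD1(OE) peak of 6673 bp (chr17:33778775-33785447). In its place lay peaks of 1172, 1484 and 2376 bp in wild-type myogenic and 4 peaks of 961 to 2238 bp in wild-type adipogenic cells. All 3 libraries had the strongest summit of the Angptl4 domain between genes, 2094, 2162 and 2033 bp upstream of the start site. Klf9, a glucocorticoid-responsive repressor, was 2066, 2318 and 4089 bp, and Dusp1, a MAP kinase phosphatase, was 2332, 3078 and 3974 bp. Per1, a clock repressor, was a single LSD1(OE) peak of 3879 bp over 2 myogenic and 3 adipogenic pieces. Both wild-type libraries thus had peaks at Angptl4, Klf9, Per1 and Dusp1, and the calls were longer in LSD1(OE) cells.

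Other genes of this group did not follow that order. Mt2, a metallothionein, was broad in all 3 libraries at 3721, 4601 and 3134 bp. Sgk1, a kinase, was broad in wild-type adipogenic cells alone, at 2832, 3614 and 1282 bp. Ddit4, an inhibitor of mTORC1, was 3705 bp in wild-type myogenic and 3018 bp in LSD1(OE) cells and was split into 1553 and 1614 bp in wild-type adipogenic cells.

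Among 26 listed extracellular matrix genes, broad peaks held no start site in either wild-type library and 4 (15.4%) in LSD1(OE) cells. Over all genes the shares were 2.18% in wild-type myogenic, 1.05% in wild-type adipogenic and 1.62% in LSD1(OE) cells, so 0 of 26 is near the wild-type shares. Any peak held 19, 14 and 19 of the listed start sites. Col5a1, a fibrillar collagen, was a single LSD1(OE) peak of 5220 bp (chr2:27884953-27890172). In wild-type myogenic cells the same ground was called as peaks of 2501 and 2844 bp that were 1 bp apart, and in wild-type adipogenic cells as 2934 and 1871 bp. Col4a1 and Col4a2, basement membrane collagens read from a shared promoter, lay under a peak of 3585 bp in LSD1(OE) cells, and the domain was split into 2807 and 1739 bp in wild-type myogenic and 2461 and 1137 bp in wild-type adipogenic cells. Lox, which crosslinks collagen, was the fourth gene. At Col5a1 and at the Col4 pair, both wild-type libraries thus had calls broken by gaps.

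Of 25 listed myogenic regulators, broad peaks held 2 start sites in wild-type myogenic cells and 0 in each adipogenic library. All genes stood at 2.18% in wild-type myogenic, 1.05% in wild-type adipogenic and 1.62% in LSD1(OE) cells. The 0 of 25 is thus near the adipogenic shares and does not by itself show a loss. Any peak held 17 of these start sites in wild-type myogenic, 7 in wild-type adipogenic and 11 in LSD1(OE) cells. Mef2d, a transcription factor that drives muscle genes with MyoD-type factors, had a myogenic peak of 5345 bp (chr3:88141334-88146678) that began upstream of the start site and ran into an intron. Wild-type adipogenic cells had 1641 and 1610 bp there, with no call over the start site itself, and LSD1(OE) cells had 1550, 1392 and 1727 bp. The intronic Mef2d summit lay at 3274 and 3297 bp from the start site in the 2 wild-type libraries. Tcf3, an E protein that pairs with MyoD, was 3759 bp in wild-type myogenic cells and was split in the other libraries, into 1392 and 1045 bp in adipogenic and 1408 and 830 bp in LSD1(OE) cells. Of 26 sarcomere and contractile genes, broad peaks held 0, 0 and 1 start sites, the last being Bin1, and any peak held 14, 4 and 5. The broad counts of the sarcomere list are near the shares over all genes. In any peak, this list stood at 53.8%, 15.4% and 19.2%, against 41.9%, 23.4% and 31.9% of all genes.

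Genes of the actin cytoskeleton and of adhesion were covered at 5, 4 and 4 of 32 start sites. These were 15.6%, 12.5% and 12.5% of the list, against 2.18%, 1.05% and 1.62% of all genes. Any peak held 29, 23 and 25 (90.6%, 71.9% and 78.1%), against 41.9%, 23.4% and 31.9% of all genes. Of the covered genes, Plec, Myh9 and Itga5 lie on chromosome 15, which held an excess of broad peaks. Plec, which encodes the cytolinker plectin, had 15016 bp in wild-type myogenic (chr15:76193981-76208996) and 14556 bp in LSD1(OE) cells, and pieces of 2705, 3842 and 6769 bp in wild-type adipogenic cells. The background ratio of the myogenic Plec peak was 3.27. Flnc, which encodes filamin C, was 4993 bp in wild-type myogenic and 5344 bp in LSD1(OE) cells and was split into 3 pieces in wild-type adipogenic cells. Tpm2, a tropomyosin, was broad in wild-type myogenic cells alone, at 3576, 1367 and 2873 bp, and Itga5, an integrin subunit, was 3062 bp in wild-type adipogenic and 5006 bp in LSD1(OE) cells and was split into 2505, 969 and 816 bp in wild-type myogenic cells.

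The adipogenic list, of 22 genes, was covered at 2, 1 and 2 start sites. These were 9.09%, 4.55% and 9.09% of the list, against 2.18%, 1.05% and 1.62% of all genes. Nfix, a nuclear factor I gene, had a pair of broad peaks of 6989 and 7508 bp in wild-type myogenic cells and 1 of 3811 bp in wild-type adipogenic cells, and no piece above 2608 bp in LSD1(OE) cells. Cebpa, a central regulator of fat cells, had 1977 bp in wild-type myogenic cells, no peak in wild-type adipogenic cells and 3502 bp in LSD1(OE) cells. Klf13 was 4024 and 3928 bp in wild-type myogenic and LSD1(OE) cells and was split into 1772 and 1195 bp in wild-type adipogenic cells.

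The last 4 lists are also to be read beside 2.18%, 1.05% and 1.62% of all genes, and a count of 0 or 1 gene does not set a list apart from these shares. Of 22 TGF-beta, BMP and Id genes, broad peaks held Id1 in wild-type myogenic cells and Id2 in LSD1(OE) cells (4.55% in each). Of 18 Tead and Yap genes, they held Ajuba in both wild-type libraries and Tead4 in wild-type adipogenic cells (5.56% in wild-type myogenic, 11.1% in wild-type adipogenic and 0 in LSD1(OE) cells). Of 24 Runx and other lineage factors, 3, 3 and 4 were covered (12.5%, 12.5% and 16.7%), among them a Runx1 promoter at 3151, 2841 and 3509 bp and Foxo1 at 2602, 3754 and 3420 bp. Of 11 nuclear long noncoding RNAs, 2, 0 and 1 were covered (18.2%, 0 and 9.09%). Neat1, the scaffold of paraspeckles, was 6055 bp in wild-type myogenic cells and was split in wild-type adipogenic cells.

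Several of the longest peaks had their summits away from start sites. Septin9 carried an intronic domain, upstream of its nearest start site, of 9964 bp in wild-type myogenic, 7004 bp in wild-type adipogenic and 13561 bp in LSD1(OE) cells, with a background ratio of 1.85 for the myogenic peak. A domain upstream of Cirbp, a cold-inducible RNA-binding protein, was 8673, 8266 and 10780 bp, and its summits lay 6033, 5030 and 4071 bp upstream of the start site. In the region of Mir3089, a myogenic peak of 13124 bp with a background ratio of 2.5 stood in place of 5 adipogenic and 5 LSD1(OE) peaks. Broad peaks had another broad peak of the same library within 50 kb in 41.9% of cases in wild-type myogenic, 40.3% in wild-type adipogenic and 44.8% in LSD1(OE) cells, and in 32.4%, 28.5% and 38.4% without chromosome 15.

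Domains with no peak at all in either other library were few, and many of them lay in ground where reads are hard to place or background was high. There were 12 in wild-type myogenic, 0 in wild-type adipogenic and 20 in LSD1(OE) cells. Many of the LSD1(OE) ones lay between 55 and 65 Mb on chromosome 15. The broad peaks of that library had a median background ratio of 1.88 there. In 5 of the 12 and 15 of the 20, the background ratio was over 1.5, and 3 of each had under 80% of their 50-base stretches occurring once in the genome. Over all broad peaks, either applied to 7.27%, 10.8% and 11.6%. The longest of them in wild-type myogenic and LSD1(OE) cells, 26156 bp on chromosome X and 15556 bp on chromosome Y, both lay over Erdr1, with 3.25% and 13.5% of stretches unique. As Erdr1 is annotated on both chromosomes and few of these stretches are unique, absence by position is uncertain there. Free of both features were 7 myogenic and 5 LSD1(OE) domains, the latter including peaks of 3014 and 3008 bp in that stretch of chromosome 15. Among these, Anp32b, which encodes a histone chaperone, had a myogenic promoter peak of 3771 bp (chr4:46450310-46454080) with 318 tags, a score (-10 times the log10 of the p-value of the caller) of 1393 and a summit 33 bp into the gene. An intronic peak of 4577 bp in Gnao1, a G protein subunit gene, had 362 tags and a score of 1377.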

How the data were processed

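Lsd1 was measured by ChIP-seq (HiSeq 2000, single reads of 50 bases) with a homemade antibody against the Lsd1 C-terminus after 6 min fixation in 1% paraformaldehyde. The authors aligned reads to mm10 with Bowtie per the study's methods, or Bowtie2 per the submitters' processing notes, and called peaks against the matched input with MACS, named as version 1.41 in the submitters' processing notes and 1.4.2 in the file headers. The study's methods use only uniquely mapping reads for its browser profiles, and whether the peak calls did so too is not given in the sources used here. In the peak tables deposited by the authors, tags are whole-number counts of ChIP reads in a peak after duplicates were limited, and the score is -10 times the log10 of the peak p-value. The deposited fold enrichment, a ratio to local background, was not compared between libraries, because the headers give a separate scaling of ChIP to input tags for each (1.90, 1.28 and 1.82 times). The deposited FDR is a percent, and it was at most 0.36%, 0.71% and 0.41% in the broad peaks of the wild-type myogenic, wild-type adipogenic and LSD1(OE) libraries.

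Peaks of 3000 bp or more were selected, joined at an overlap of 1 bp, and annotated with curated RefSeq transcripts of GRCm38.p6 (31647 start sites, 26180 genes). A peak was kept, split, shortened or absent by its overlaps in another library, as the report defines. Local background was solved as the input density at which a Poisson tail of the scaled ChIP tags gives the deposited score, for scores under 3000, and divided by the genome average of input tags (46.8, 43.6 and 53.9 per kb). Uniqueness was the share of 50-base stretches that occur once in the genome on either strand. Named genes came from 13 lists of 286 genes and from the longest domains. The members and the lists were chosen with earlier results of these data known, and the histone list after its values were seen. With 1 ChIP library per condition no test was run. Shares carry 95% Wilson intervals, which cover counting error only. Python 3.11.15, NumPy 2.4.6, pandas 2.3.3, SciPy 1.17.1 and pysam 0.24.0 were used, and the code was checked on simulated peak lists, where 8 of 8 checks returned what had been put in.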

Additional observations from a re-analysis of the deposited data

How the results depend on the processing

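Of 158 alternative values over 20 settings, 90 stayed within counting error or, for counts, within 1.5 times, and 68 moved further. A limit of 2500 bp gave 1679, 1027 and 1629 broad peaks in wild-type myogenic, wild-type adipogenic and LSD1(OE) cells, 2773 merged domains and 413 broad in all 3 libraries. A limit of 4000 bp gave 288, 172 and 337 broad peaks, 564 domains and 57 broad in all 3. Joining peaks across gaps of at most 1000 bp gave 2783, 1306 and 2419, 4071 domains and 700 broad in all 3. With the 538 longest peaks of each library, wild-type myogenic ones were kept in 41.1% in wild-type adipogenic and 37.9% in LSD1(OE) cells, wild-type adipogenic ones in 41.1% in wild-type myogenic and 43.7% in LSD1(OE) cells, and LSD1(OE) ones in 42.6% in wild-type adipogenic cells. The shares absent in another library, 0.372% to 5.74% at an overlap of 1 bp, were 7.81% to 21.4% when 50% of the broad peak had to be overlapped, 2.79% to 12.2% when its summit had to be covered, and 1.49% to 9.85% against peaks with a score of at least 100. With all RefSeq transcripts, predicted ones included, a start site lay inside 58.7%, 50.7% and 45.5% of broad peaks, and a gene body was overlapped by 74.7%, 68.6% and 68.6%. Promoters of 1000 bp either side held 41.7%, 30.7% and 27.3% of summits. Without chromosome 15, which was an alternative added after seeing the data, 337 wild-type adipogenic broad peaks and 122 domains broad in all 3 libraries were left, 27.5% of wild-type myogenic and 28.7% of LSD1(OE) broad peaks were kept in wild-type adipogenic cells, and 54.9% of wild-type myogenic ones held a start site. Leaving out peaks with a background ratio over 1.5, or with under 80% of stretches unique, both also added later, moved no count by over 1.5 times.

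With 1 ChIP library per condition, the spread between cultures is unknown and no replicate was left out. No paired analysis was possible because the labels give no replicate numbers and no result comes from a test. The deepest ChIP library, wild-type adipogenic, gave the fewest peaks, and input depth and the scaling to input also differed, so condition and library cannot be told apart.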

Other observations

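A few broad peaks had tag densities far above the rest. On chromosome 17, a peak of 6244 bp (chr17:39842839-39849082) held 12379 tags in wild-type myogenic cells, a density of 43.0 scaled tags per kb. The overlapping peaks of wild-type adipogenic and LSD1(OE) cells had 26.4 and 38.9. The background ratio of the adipogenic peak was 39.8, and the others, with scores of 3100, were above the limit for solving it. A peak of 5259 bp on chromosome 1 (chr1:24611121-24616379) had a density of 25 scaled tags per kb in wild-type myogenic cells at a background ratio of 41.0. Of its 50-base stretches, 5.28% occurred once in the genome. A peak of 4688 bp on chromosome 14 (chr14:19415174-19419861) had 12605 tags and a density of 48.7 in LSD1(OE) cells at a background ratio of 87.3 and no peak in the other libraries.

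Broad peaks overlapped 23 annotated tRNA genes in wild-type myogenic, 9 in wild-type adipogenic and 21 in LSD1(OE) cells, of 403, while all peaks overlapped 167, 95 and 155. These genes lay in 8, 4 and 6 broad peaks. In wild-type myogenic and LSD1(OE) cells, several of these peaks lay near Mir6546 on chromosome 1 and overlapped 5 tRNA genes each. At most 21.1% of the 50-base stretches in those peaks occurred once in the genome. Their background ratios were 2.64 to 4.20, so the tRNA counts of these 2 libraries are uncertain.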
